A study of Sus scrofa with 16 samples.

Results

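A set of 76 genes of immune signalling was followed through liver and subcutaneous backfat of Iberian pigs. It held the chemokines and their receptors, the interleukins and their receptors, tumour necrosis factor (TNF) and its relatives, and the Toll-like receptors. The genes were chosen by symbol alone, among 6765 genes for which the array's annotation paired a probe set with exactly 1 symbol. A gene belonged to the set when its symbol began with CCL, CCR, CXCL or CXCR and a digit, with IL or TLR and a digit, or with TNF. The 76 genes had 94 probe sets, and for the 14 genes with several the probe set of highest mean over all arrays stood for the gene.

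Chemokines are small secreted proteins that attract white blood cells through receptors on the cell surface. Interleukins and TNF carry signals between immune cells and between immune and tissue cells. Toll-like receptors recognise parts of microbes and switch on many of these genes. Liver holds a large population of resident macrophages, the Kupffer cells, and adipose tissue holds macrophages and other white blood cells among its fat cells, which themselves secrete several of these factors.

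Each of the 16 samples was total RNA of 1 tissue of 1 pig, hybridised to 1 Affymetrix porcine array, and all pigs were Iberian and 211 days old. The 8 groups of 2 arrays were liver or backfat, of males or females, at the high feeding level or at a low level restricted by 20%. The design text counts 8 pigs. The labels carry 10 animal numbers, with males 14 to 17 in both tissues, females 18 to 21 in liver and females 20 to 23 in backfat. Females 20 and 21 carry one feeding level in liver and the other in backfat. Arrays are named below by sex and animal number. The castration status of the males was not given in the sources used here.

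Values were GCRMA levels on a log2 scale, in which 1 unit is a doubling, with array medians of 3.94 to 4.13. A value of 4 was taken as the line above which a gene was counted as detected. The Y-linked EIF1AY, a check of the sex labels, read 8.69 to 9.47 on male arrays and 2.78 to 2.97 on female arrays. The 6 hepatocyte markers averaged 14.29 to 14.54 per liver array. In backfat they averaged 2.88 to 7.08, with the highest means on male 15 and female 20, both at the low level. The tissue means of TTR, APOA2 and SERPINA1 lay below 4 there. The 4 measured fat cell markers, of 6, averaged 11.74 to 13.22 per backfat array and 2.37 to 2.98 per liver array. With 2 arrays per group, precision is set by the number of arrays.

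By the mean of 8 arrays, 30 of the 76 genes, or 39.5%, stood above 4 in liver and 31, or 40.8%, in backfat. Among all 6765 genes those shares were 70.7% and 70.6%. The same 26 genes were above 4 in both tissues. IL16, IL18, IL7 and TLR2 were above it in liver alone, and CCL24, CXCL2, IL10RB, IL34 and TNFAIP6 in backfat alone. The other 41 were above it in neither, and 37 of them on no array. On all 8 arrays of the tissue, 25 genes were above 4 in liver and 26 in backfat. Just inside the line in liver were IL15, with a mean of 4.13, and IL7, with 4.33, and just outside it TNFAIP6, with 3.93, and IL34, with 3.71. In backfat CXCR4 lay just inside at 4.19, and IL18 at 3.98 and IL17B at 3.92 just outside. The plot of levels by array shows the 39 genes above 4 on at least 1 array.

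**Figure D1:**
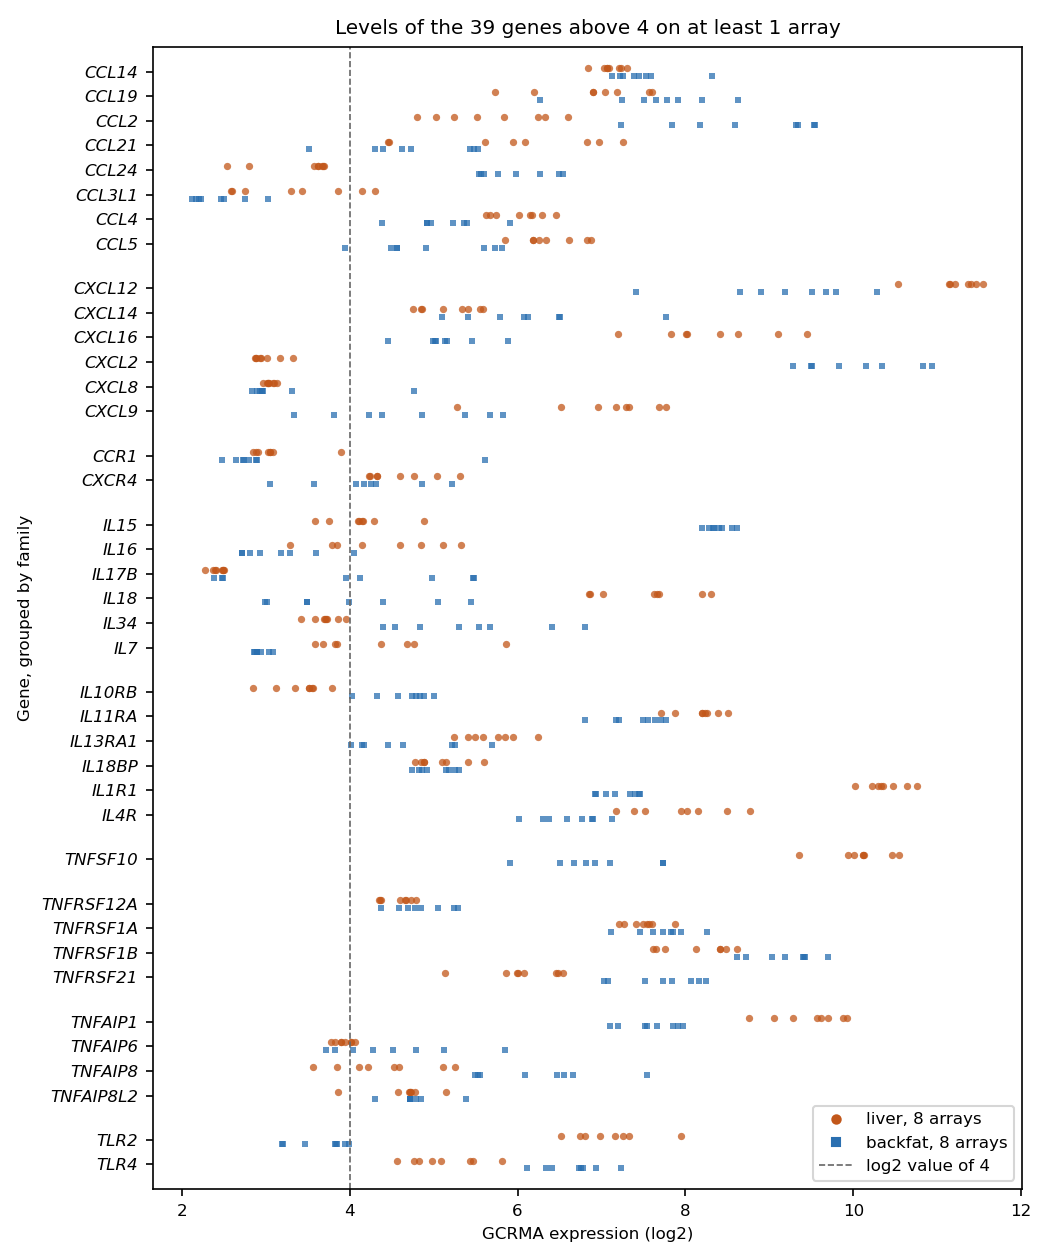
GCRMA level (log2, horizontal axis) of the 39 genes above 4 on at least 1 array, grouped by family, with 1 point per array for 8 liver (orange circles) and 8 backfat (blue squares) arrays and a dashed line at 4. CXCL2 lies between 9.28 and 10.94 in backfat and between 2.87 and 3.32 in liver, and TLR2 lies at or above 6.52 in liver and below 4 in backfat.

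The families differed in how many members were detected. Of 12 CC chemokines, 6 were above 4 in liver and 7 in backfat, and of 7 CXC chemokines 4 and 5 were. Of 7 chemokine receptors 1 was in either tissue, CXCR4. Of 18 interleukins, 4 were above 4 in liver and 2 in backfat, and of 13 interleukin receptors and binding proteins 5 and 6 were. Of 4 TNF ligands 1 was in either tissue, TNFSF10, against 4 of 5 TNF receptors in both. Of 6 Toll-like receptors, 2 were in liver and 1 in backfat. The TNF-induced genes were above 4 in 3 of 4 cases in liver and in 4 of 4 in backfat.

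The classical inflammatory cytokines were among the undetected genes. TNF itself ran from 2.93 to 3.22 in liver and from 2.90 to 3.12 in backfat. IL1B, the fever cytokine of activated macrophages, ran from 2.45 to 2.59 and from 2.46 to 2.94, and its relative IL1A from 2.45 to 2.54 and from 2.43 to 2.50. A value below 4 does not show that a transcript is absent. IL6 ran from 2.67 to 2.76 in liver and from 2.69 to 3.95 in backfat, highest in female 23 and next in male 14, at 3.53. IL10, an anti-inflammatory interleukin, ran from 2.49 to 3.97 in liver, with male 14 highest, and from 2.45 to 2.61 in backfat. IL6R, the IL6 receptor, stayed between 2.29 and 2.42 on the 16 arrays. The T cell cytokines IL2, IL4, IL5, IL13, IL17A and IL21 were also below 4 on every array. So were CCL25, CCL28, CXCL13, IL12A, IL12B, IL27RA, TNFRSF17, TNFSF13 and TNFSF4. CCR1 and CXCL8 were above 4 on 1 array each, the backfat of female 21. CXCL10, IL1RN, IL6ST, TLR3 and TNFAIP3 were not analysed here.

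The tissues were compared over all 16 arrays, as backfat minus liver. Of the 76 genes, 37 were above 4 on at least 2 arrays and entered the test, and 32 of them passed (limma, Benjamini-Hochberg adjusted p below 0.05), 15 higher in backfat and 17 higher in liver. These were 86.5% of the tested members, beside 75.7% of all 13962 probe sets tested, of which 43.6% were higher in backfat and 32.2% higher in liver. Genes detected in a single tissue entered the test through that tissue, so the 26 detected in both are counted apart: 21 passed, 9 higher in backfat and 12 in liver. The other 5 were CXCR4, IL18BP, TNFAIP8L2, TNFRSF12A and TNFRSF1A. The share over all probe sets above 4 in both tissues was not computed, so these counts are not read as a trait of the members. Of the 37 tested members, 20, or 54.1%, had no overlap between the 8 arrays of either tissue, 10 in each direction, beside 44.9% of all probe sets tested. Among the 20 were CCL24, CXCL2, IL10RB, IL34, IL7 and TLR2, each below 4 on all arrays of 1 tissue. These entered the test through the other tissue, which favours a lack of overlap, so the count is not read as a trait of the members. The median difference was -0.05 over the members and 0.15 over all probe sets. In whole tissue, fewer cells of a type and less RNA per cell cannot be told apart. The leukocyte markers, 5 of 5 measured, averaged 6.13 to 6.95 per liver array and 4.38 to 6.48 per backfat array, and 7 measured macrophage markers of 10 averaged 8.12 to 8.74 and 4.24 to 6.24. PTPRC and CORO1A had means below 4 in backfat, as did CD14 and MARCO, which was also below 4 in liver. The part of these cells in the tissue differences was not tested.

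**Figure D2:**
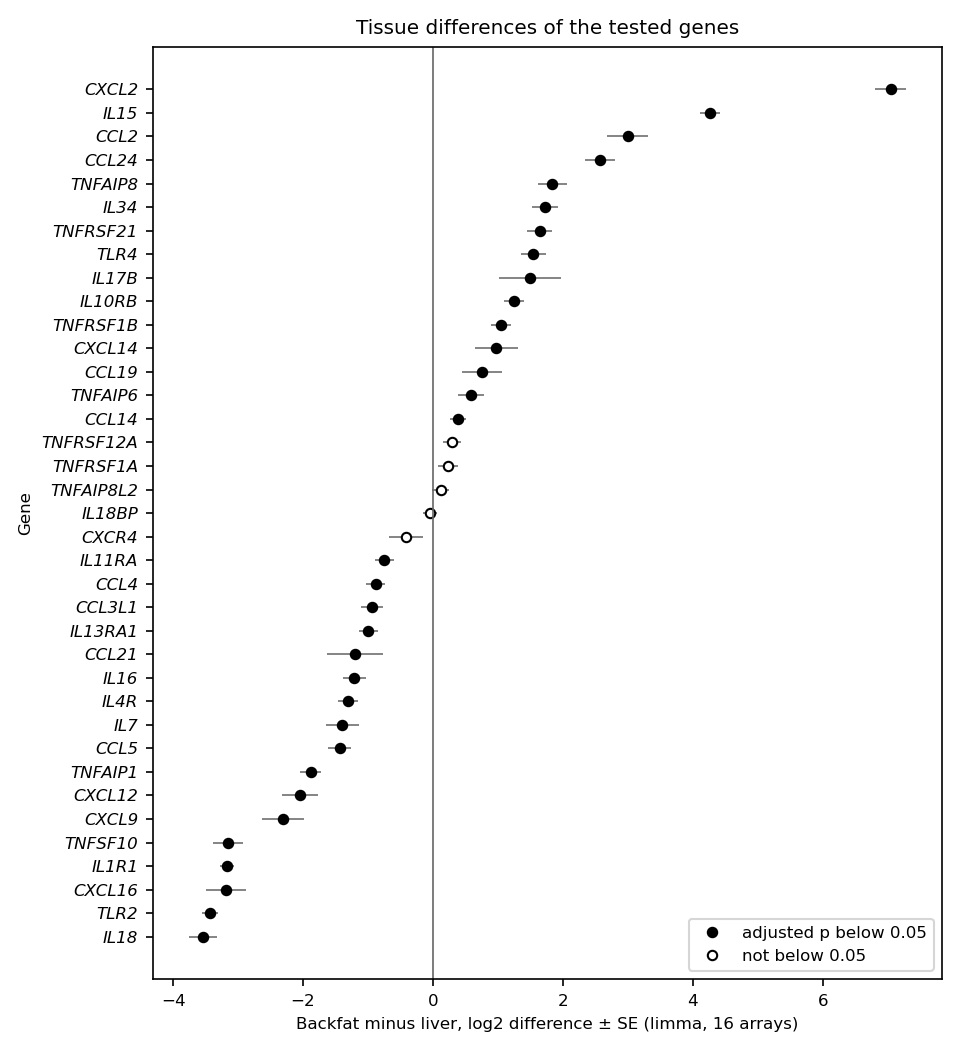
Backfat minus liver difference (log2, horizontal axis) with its standard error from limma over 16 arrays, for the 37 tested genes in order of the difference; filled points passed an adjusted p of 0.05 and open points did not. IL15 is at 4.26, IL1R1 at -3.17, and the points of genes that lie under 4 in 1 tissue, such as CXCL2 and TLR2, depend on values below the line and give no fold. The 5 open points lie between -0.42 and 0.29.

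Among the chemokines, CXCL2, a neutrophil attractant, marked backfat. Its backfat arrays ran from 9.28 over a median of 9.99 to 10.94, and its liver arrays from 2.87 over 2.94 to 3.32. Every backfat array thus lay far above every liver array, all of which were below 4. Taking 4 as the floor in liver, CXCL2 was at least 66.1-fold higher in backfat, with a bound between 60.5 and 71.3 when any 1 array was left out (adjusted p = 1.38e-10 in limma). CXCL2 entered the test through backfat alone, so this p-value is not read as separate support. CCL2, which draws monocytes through the receptor CCR2, ran from 7.23 over 8.95 to 9.54 in backfat and from 4.81 over 5.68 to 6.60 in liver. The arrays did not overlap, and the difference was 2.99 ± 0.32 (SE). CCR2 itself was below 4 on all arrays. CCL24, an attractant of eosinophils, ran from 5.54 over 5.87 to 6.54 in backfat and from 2.54 over 3.62 to 3.69 in liver, a fold of at least 3.92 towards backfat. CXCL14 ran from 5.10 over 6.10 to 7.77 in backfat and from 4.75 over 5.22 to 5.59 in liver, with overlap and a difference of 0.98 ± 0.33 (SE). Its other probe set gave 1.60.

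Other chemokines stood higher in liver. CXCL16, a membrane-bound chemokine that also takes up oxidised lipoprotein, ran from 7.20 over 8.21 to 9.44 in liver and from 4.45 over 5.08 to 5.88 in backfat. The difference was -3.19 ± 0.31 (SE), without overlap. Its receptor CXCR6 was below 4 on all arrays. CXCL9, an interferon-induced T cell attractant, ran from 5.28 over 7.23 to 7.77 in liver and from 3.34 over 4.63 to 5.82 in backfat. The liver of male 17, at 5.28, was below the backfats of male 17, male 14 and female 21, and the other 7 livers, from 6.51, lay above all backfats. The difference was -2.31 ± 0.33 (SE). CCL5, which attracts T cells and monocytes, ran from 5.85 over 6.30 to 6.87 in liver and from 3.94 over 4.74 to 5.82 in backfat, a difference of -1.44 ± 0.18 (SE) without overlap. Its relative CCL4 passed in the same direction, with -0.88. CCL3L1 also passed, but its mean was below 4 in both tissues and it was above 4 on 2 liver arrays and on no backfat array, so no difference is given. CCL21 and CCL19 share the receptor CCR7 and differed in direction, with -1.20 and 0.76. CCR7 was below 4 on all arrays. CCL14 had 0.38.

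CXCL12, which holds white blood cells in tissues through CXCR4, depended on the probe set. Its brighter probe set ran from 10.53 over 11.29 to 11.54 in liver and from 7.41 over 9.34 to 10.28 in backfat, a difference of -2.05 ± 0.28 (SE; adjusted p = 3.14e-05 in limma). The other probe set gave 0.68 ± 0.18 (SE; adjusted p = 0.00441), so that the tissue in which CXCL12 was higher cannot be stated. With the mean of both the difference was -0.68. CXCR4 ran from 4.23 over 4.47 to 5.31 in liver and from 3.05 over 4.21 to 5.22 in backfat. The tissues overlapped, and the difference of -0.42 ± 0.27 (SE) did not pass (adjusted p = 0.178), except without the backfat array of female 21, where it was -0.62 (adjusted p = 0.0293).

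Disagreement between probe sets also touched TNFRSF12A and TNFAIP8. For TNFRSF12A, the receptor of the cytokine TWEAK, the probe set of highest mean had 0.29 ± 0.13 (SE; adjusted p = 0.0651 in limma) and the other 2.58 ± 0.26 (SE; adjusted p = 2.73e-06). For TNFAIP8, a regulator of cell survival, they had 1.84 ± 0.22 (SE) and 0.02 ± 0.07 (SE), and their mean gave 0.93. The second TNFAIP8 probe set had a liver mean of 4.24 with an SD of 0.05 over 8 arrays. TLR4 had 3 tested probe sets, with 1.54, 1.41 and 0.83, and the 2 of CXCL14 also shared a direction. Of the 5 genes with more than 1 tested probe set, CXCL14 and TLR4 had all of them past the threshold in 1 direction. IL1R1, IL4R, IL17B and TNFAIP8L2 also had several probe sets, but only that of highest mean was tested. Their others were not above 4 on at least 2 arrays, so the tissue differences of these genes rest on 1 probe set.

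**Figure D3:**
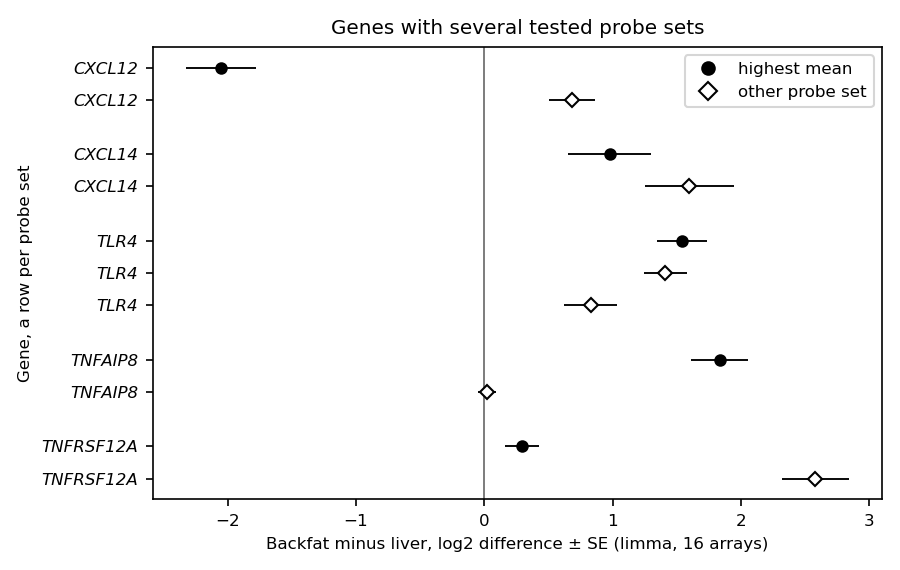
Backfat minus liver difference (log2, horizontal axis) with its standard error from limma over 16 arrays, for the 5 genes with more than 1 tested probe set; the filled point is the probe set of highest mean and open diamonds are the others. The CXCL12 probe sets lie on opposite sides of 0, at -2.05 and 0.68, and the TLR4 probe sets all lie above it.

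Of 6 tested interleukins 3 were higher in backfat and 3 in liver, beside 43.6% and 32.2% of all probe sets. Only IL15 had a mean above 4 in both tissues, so for most the direction restates the tissue in which they were detected. IL15, which sustains natural killer and memory T cells, ran from 8.20 over 8.37 to 8.61 in backfat and from 3.59 over 4.13 to 4.88 in liver. The 8 backfat arrays lay within a narrow band, with a mean of 8.39 ± 0.14 (SD, n = 8), above every liver array. Its difference was 4.26 ± 0.16 (SE; adjusted p = 2.92e-10 in limma). IL34, the second ligand of the macrophage growth factor receptor CSF1R, ran from 4.40 over 5.42 to 6.80 in backfat and was below 4 on all liver arrays, at least 2.71-fold lower there. IL17B was above 4 on 4 of 8 backfat arrays and on no liver array. Those 4 were male 16 at 5.48, female 23 at 5.47, male 17 at 4.98 and female 20 at 4.12. Female 21 was at 3.95, and the other 3 at 2.38 to 2.49. Both sexes and both feeding levels were among the 4. The means of both tissues were below 4. IL17B passed, but not when values under 4 were set to 4 (0.50, adjusted p = 0.0860 in limma).

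IL18, a cytokine released by inflammasomes, ran from 6.85 over 7.64 to 8.30 in liver and from 2.99 over 3.74 to 5.45 in backfat. The tissues did not overlap, and the difference was -3.54 ± 0.22 (SE; adjusted p = 3.86e-08 in limma). In backfat 3 of 8 arrays were above 4, and with values under 4 set to 4 the difference was -3.16. IL18BP, which binds and neutralises IL18, had means of 5.08 in liver and 5.03 in backfat, and its difference did not pass (adjusted p = 0.685). The receptor gene IL18R1 was below 4 on all arrays. IL7, a survival factor of lymphocytes, was above 4 on 4 of 8 liver arrays, with female 19 highest at 5.86, and below 4 on all backfat arrays. It was at least 1.26-fold higher in liver, with a bound of 1.08 to 1.35 when any 1 array was left out. With values under 4 set to 4 the difference was -0.46 and did not pass (adjusted p = 0.0860). IL16, an attractant of CD4 cells, was above 4 on 5 of 8 liver arrays and on 1 backfat array. It passed as higher in liver, and with values under 4 set to 4 the difference was -0.50.

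Of 13 interleukin receptors and binding proteins 6 were tested, with 4 higher in liver and 1 in backfat, beside 32.2% and 43.6% of all probe sets. IL1R1, the signalling receptor of IL1A and IL1B, ran from 10.02 over 10.34 to 10.75 in liver and from 6.93 over 7.25 to 7.46 in backfat. On its 1 tested probe set the groups were tight and far apart, with a difference of -3.17 ± 0.11 (SE; adjusted p = 2.03e-10 in limma). IL4R and IL13RA1, which together form a receptor of IL4 and IL13, had -1.31 and -0.996. IL11RA had -0.75. IL10RB, a chain shared by the receptors of IL10 and its relatives, differed the other way. It ran from 4.03 over 4.77 to 5.01 in backfat and from 2.85 over 3.51 to 3.79 in liver, and was at least 1.57-fold higher in backfat. Of the 6, IL18BP did not pass. The other 7, among them IL2RA, IL2RG, IL7R and IL12RB2, were below 4 on all arrays.

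In the TNF family the detected ligand was higher in liver, as were 32.2% of all probe sets tested. Of 4 tested receptors 2 were higher in backfat, beside 43.6% of all probe sets, so the count is not read as a trait of the receptors. It takes the TNFRSF12A probe set of highest mean, while the other one passed as higher in backfat. TNFSF10, the death ligand TRAIL, ran from 9.35 over 10.11 to 10.54 in liver and from 5.91 over 6.87 to 7.74 in backfat. That was a difference of -3.16 ± 0.23 (SE), without overlap. TNFRSF21, death receptor DR6, ran from 7.03 over 7.78 to 8.25 in backfat and from 5.13 over 6.04 to 6.54 in liver, a difference of 1.64 ± 0.20 (SE) without overlap. TNFRSF1B, the TNF receptor found mainly on white blood cells and endothelium, ran from 8.61 over 9.29 to 9.70 in backfat and from 7.61 over 8.27 to 8.61 in liver. The highest liver array and the lowest backfat array were less than 0.01 apart, and the difference was 1.05 ± 0.15 (SE). TNFRSF1A, the TNF receptor of most cell types, ran from 7.11 over 7.78 to 8.26 in backfat and from 7.21 over 7.52 to 7.88 in liver. The tissues overlapped widely, and the difference of 0.23 ± 0.15 (SE) did not pass (adjusted p = 0.187 in limma). Without the backfat array of female 20 it was 0.33 (adjusted p = 0.0477), and without those of male 15 and female 20 it was 0.35 (adjusted p = 0.0645).

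TNFAIP1, an adaptor of a ubiquitin ligase named for its induction by TNF, ran from 8.76 over 9.59 to 9.92 in liver and from 7.10 over 7.60 to 7.97 in backfat, with -1.88 ± 0.16 (SE) and no overlap. TNFAIP6, a secreted protein that binds hyaluronan, stood close to the line in both tissues. It ran from 3.72 over 4.40 to 5.85 in backfat and from 3.77 over 3.92 to 4.07 in liver. The backfats of female 20, at 5.85, male 14, at 5.13, and male 15, at 4.79, were highest, and those of females 21 and 22 lay within the liver range. Its difference of 0.59 ± 0.20 (SE; adjusted p = 0.0212) was 0.52 without the backfat array of male 15 (adjusted p = 0.0517) and 0.36 without those of male 15 and female 20 (adjusted p = 0.0875). TNFAIP8L2 had 0.12 and did not pass.

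The detected Toll-like receptors were on opposite sides. TLR2, which recognises bacterial lipoproteins, ran from 6.52 over 7.07 to 7.95 in liver and from 3.20 over 3.83 to 3.99 in backfat. It was at least 8.54-fold higher in liver, with a bound between 7.84 and 9.03 when any 1 array was left out (adjusted p = 2.27e-10 in limma). TLR2 entered the test through liver alone, so this p-value is not read as separate support. TLR4, the receptor of bacterial lipopolysaccharide, ran from 6.11 over 6.74 to 7.23 in backfat and from 4.57 over 5.03 to 5.82 in liver. No backfat array was as low as a liver array, and the difference was 1.54 ± 0.19 (SE; adjusted p = 1.81e-05). TLR1 and TLR6, partners of TLR2, and TLR8 and TLR9, which sense nucleic acids, were below 4 on all arrays.

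Of 60 listed genes that act with or below these receptors, 35 were measured and 25 were tested between the tissues, with 8 higher in backfat and 10 in liver. These 18 of 25 were 72%, beside 75.7% of all probe sets tested, of which 43.6% were higher in backfat and 32.2% in liver. The median difference was -0.07. The helpers of TLR4 were divided. LY96, which completes the TLR4 receptor, had 2.41 ± 0.18 (SE) and the adaptor MYD88 0.92 ± 0.21 (SE), both higher in backfat. CD14 and LBP, which hand lipopolysaccharide to TLR4, passed as higher in liver. LBP had a liver mean of 11.29 and was below 4 on all backfat arrays, at least 157-fold lower there. CD14 had a liver mean of 8.98 and was above 4 on 3 of 8 backfat arrays, and with values under 4 set to 4 its difference was -4.87. LBP is made by hepatocytes and CD14 was also counted above as a macrophage marker. Among cytokine signal carriers, STAT5A had 2.28, JAK1 1.02 and PIAS1 0.88, while STAT3 had -1.90 and STAT2 -1.36. FADD, which links death receptors to caspases, had -3.38, and CFLAR, which blocks that step, -0.72. Of 12 listed genes of the NF-kappa-B group, 4 were measured and 3 tested. The tested ones, NFKBIA, NFKBIB and IKBKG, were higher in liver, with -0.48, -1.45 and -0.47. NFKB1 was measured but not tested, and NFKB2, RELA, RELB and REL were not measured. SIGIRR, an inhibitor of IL-1 and Toll-like signalling, had -1.30.

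Some of these genes are copies that arose side by side, but the groups here were made by position alone. By the gene order of the Sscrofa11.1 annotation in RefSeq, in which all 76 matched by Entrez ID, 28 of them fell into 10 groups with at most 10 other genes between neighbours. Below 4 on average in both tissues were 41 of the 76 members, and in 5 groups every member was. These were the receptors CCR9, CXCR6, CCR1, CCR3 and CCR2, the interleukins IL5, IL13 and IL4, and the pairs IL1A with IL1B, TLR1 with TLR6 and IL2 with IL21. The other 5 were mixed. CXCL2, high in backfat, neighbours CXCL8, whose means were 3.05 in liver and 3.20 in backfat, and CCL2 neighbours CCL8, which was below 4 on all arrays. IL1R1 neighbours the undetected IL18R1. CCL4, CCL14 and CCL5 were detected beside CCL3L1, and CCL19, CCL21 and IL11RA beside the undetected CCL27. Near-identical copies can share probes, as in the CCL3 and CCL4 family, and the probes were not examined.

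Sex was compared within each tissue, as female minus male over 4 arrays each. In liver 1 of 32 tested members passed, beside 4.53% of 12617 probe sets tested. It was TNFRSF1B, the second TNF receptor, with female livers at 7.75, 7.61, 7.65 and 8.13 (animals 18 to 21) and male livers at 8.41, 8.61, 8.41 and 8.48 (animals 14 to 17). Every male lay above every female, with female 21 nearest. The means were 7.79 ± 0.24 (SD, n = 4) and 8.48 ± 0.09 (SD, n = 4), and the difference was -0.69 ± 0.13 (SE; adjusted p = 0.0391 in limma). It was the 1 member of 32 without overlap, beside 11.8% of all probe sets. The adjusted p was 0.0791 to 0.127 without any 1 of males 14 to 17 and 0.0953 to 0.127 without any 1 of females 18, 19 and 20, with differences of -0.60 to -0.74, and the call held without female 21. It was also lost without the filter on dim probe sets (0.0539) and with all 16 arrays in 1 fit (0.0940, or 0.0944 when a replicate block joined the arrays of each male). The leukocyte markers averaged 6.18 to 6.52 on female and 6.13 to 6.95 on male livers.

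The next 5 members by p did not pass in liver. IL4R stood at 8.50, 7.94, 8.15 and 8.76 in females and at 8.02, 7.51, 7.17 and 7.39 in males. Female 19 fell below male 14, and the difference was 0.81 ± 0.18 (SE; adjusted p = 0.0609 in limma). Without male 14 it was 0.97 (adjusted p = 0.0396), and it passed under 4 other settings. IL16 stood at 4.14, 5.33, 5.12 and 4.85 in females and at 3.84, 3.79, 4.60 and 3.29 in males, a difference of 0.98 ± 0.26 (SE; adjusted p = 0.0935). Only 1 of 4 male livers was above 4, so the difference rests partly on values below the line. Over the settings run it was 0.71 to 1.18. IL16 passed with all 16 arrays in 1 fit (adjusted p = 0.0354, or 0.0351 with that block). TNFAIP8 had 0.78, TNFAIP1 -0.59 and TLR2 0.52, all with overlap and adjusted p-values of 0.100 to 0.216. The other probe set of TNFAIP8 had 0.04. In all 6 members had an unadjusted p below 0.05, or 18.8%, beside 19.2% of all probe sets. Of 25 signalling genes, TOLLIP, an inhibitor of Toll-like signalling, passed in female livers with 0.65 ± 0.11 (SE; adjusted p = 0.0295), and the count was 0 without any 1 of males 15 and 16 and females 18 to 21.

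**Figure D4:**
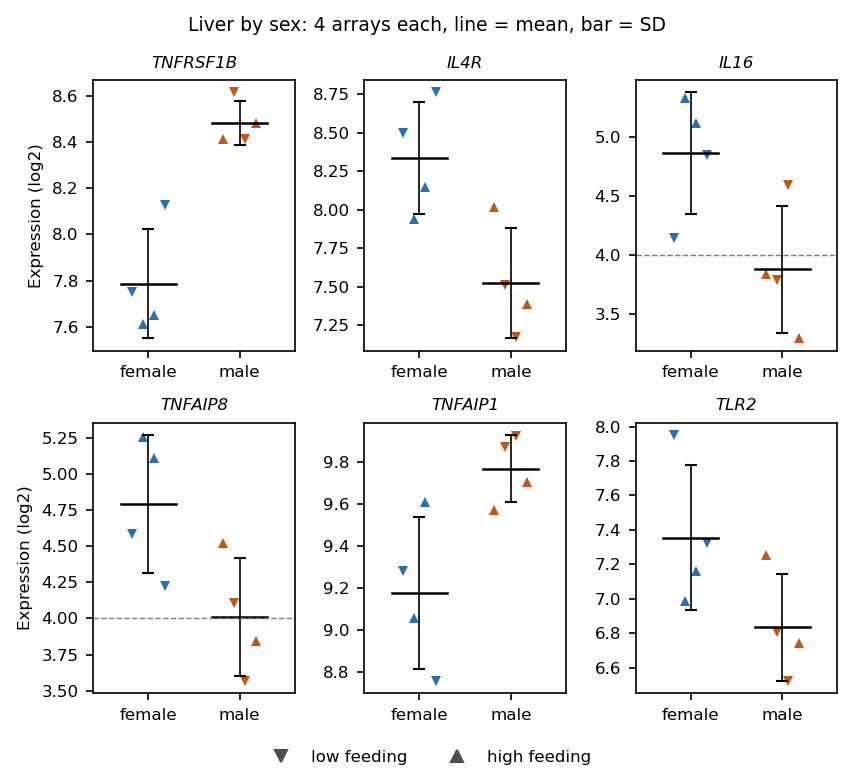
GCRMA level (log2, vertical axis) in 4 female (blue) and 4 male (orange) livers for the 6 members of lowest p, with triangles pointing down for the low and up for the high feeding level, a line at the mean and a bar of 1 SD each way. TNFRSF1B is the member whose sexes do not overlap, with females up to 8.13 and males from 8.41, and the dashed line marks 4.

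In backfat no member of 33 passed between the sexes, beside 0.11% of 12686 probe sets. In limma 2 members had an unadjusted p below 0.05, or 6.06%, beside 6.04%. IL18BP was the member without overlap, beside 3.54% of all probe sets, with females at 4.75, 4.83, 4.91 and 4.86 (animals 20 to 23) and males at 5.26, 5.19, 5.14 and 5.31. Its difference was -0.38 ± 0.11 (SE; adjusted p = 0.734). CCL4, IL34, TNFAIP8, CXCL12 and IL1R1 had 0.52, 0.80, 0.69, 0.85 and -0.30, all with overlap and adjusted p-values of 0.822 or above. The other probe set of CXCL12 had -0.35, in the opposite direction, and that of TNFAIP8 0.11. Without male 15 and female 20 the difference of IL34 was 0.37, and 3 members, or 9.09%, were without overlap, beside 7.80% of all probe sets.

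Feeding was the treatment, compared as low minus high over 4 arrays each. In backfat no member of 33 passed, beside 0% of 12686 probe sets, and 5 members, or 15.2%, had an unadjusted p below 0.05 in limma, beside 11.1%. Without overlap were 3 members, or 9.09%, beside 6.61%, all 3 lower at the low level, as were 3.36% of all probe sets. The number was 5 without male 15 or female 23 and 6 without male 14. CXCL9, the interferon-induced chemokine, stood at 4.22, 3.81, 4.39 and 3.34 on the low arrays (males 15 and 16, females 20 and 23) and at 5.68, 5.82, 5.37 and 4.86 on the high ones (males 14 and 17, females 21 and 22). Female 22, the lowest of the high arrays, lay above female 20, the highest of the low ones. Its difference was -1.49 ± 0.26 (SE; adjusted p = 0.198 in limma). Leaving out any 1 array or changing the processing gave -1.23 to -1.86, and no setting passed. Not all members went this way. Of the 33, 21 were lower at the low level, or 63.6%, beside 48.9% of all probe sets, and 12 were higher. CXCL12 was higher on both probe sets, with 0.73 ± 0.48 (SE; adjusted p = 0.593 in limma) on the brighter. The other had 1.10 ± 0.27 (SE; adjusted p = 0.254).

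IL13RA1 stood at 4.45, 4.01, 4.17 and 4.14 at the low level and at 5.25, 5.22, 5.70 and 4.63 at the high level, in the same order of animals, a difference of -1.01 ± 0.25 (SE; adjusted p = 0.257 in limma). TNFRSF21 stood at 7.07, 7.52, 7.03 and 7.73 against 8.06, 7.83, 8.16 and 8.25, a difference of -0.74 ± 0.20 (SE; adjusted p = 0.284). In both genes the gap between the levels was narrow, at female 22 for IL13RA1 and between female 23 and male 17 for TNFRSF21. CCL5, IL18 and IL34 had -0.95, -1.03 and -0.77 with overlap, and adjusted p-values of 0.314 to 0.477. IL18 was above 4 on 1 of 4 low and 2 of 4 high arrays, so its difference rests largely on values below the line. Over the settings run it was -0.53 to -1.49. The high arrays of CCL5 and IL18 were not alike. CCL5 of male 14 was at 4.56, within the low arrays, against 5.60 to 5.82 on the other high ones, and IL18 of females 21 and 22, at 5.45 and 5.05, was above that of the other 6 pigs, at 2.99 to 4.40. Without male 15 and female 20, 0 passed and 7 members, or 21.2%, did not overlap, beside 18.2% of all probe sets. The difference then was -1.86 for CXCL9, -1.12 for IL13RA1 and -0.45 for TNFRSF21.

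Markers of white blood cells also stood lower at the low level in these arrays. The leukocyte markers averaged 4.38 to 4.92 at the low and 5.45 to 6.48 at the high level, without overlap, and the macrophage markers 4.24 to 5.06 and 4.86 to 6.24. The fat cell markers averaged 11.74 to 12.01 and 12.24 to 13.22. The 9 measured T cell markers of 10 averaged at most 3.10 per backfat array. CD3D, CD3E and CD3G, the defining ones, were below 4 on all arrays. By tissue mean, CD247 was above 4 in both tissues and CD8A in liver, and the others measured were above it in neither. The part of these cells in the values of CXCL9, IL13RA1, TNFRSF21 and CCL5 was not tested.

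**Figure D5:**
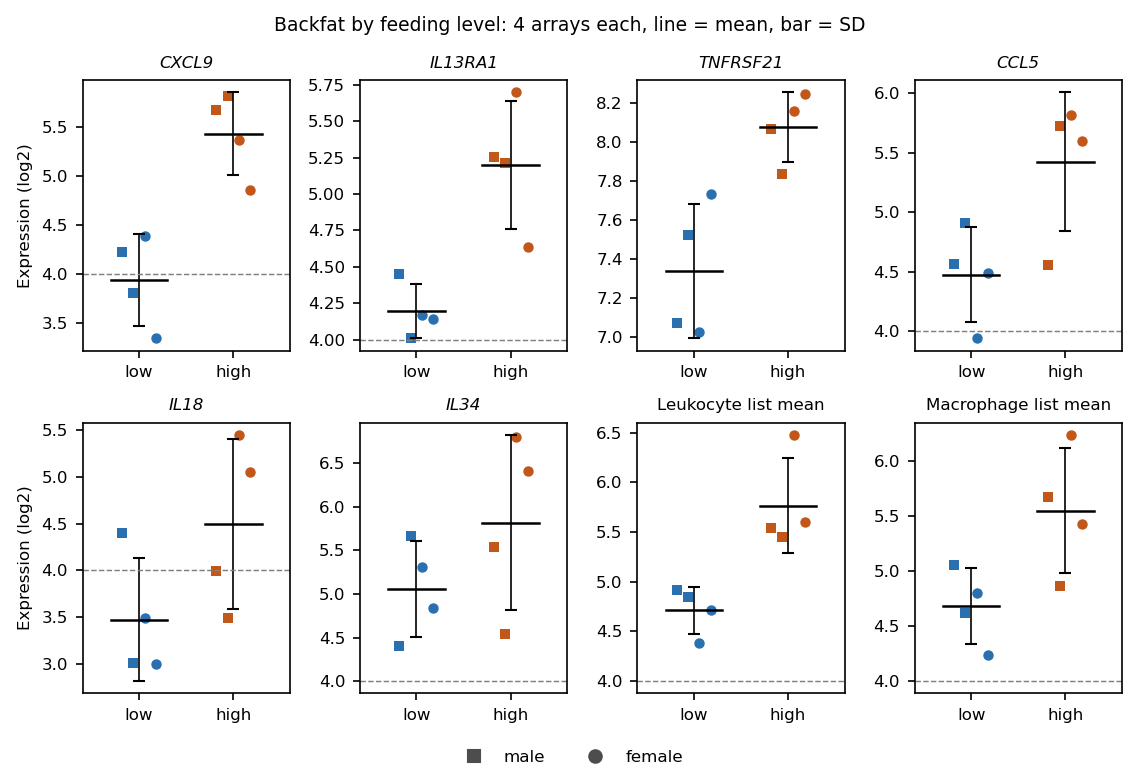
GCRMA level (log2, vertical axis) in backfat at the low (blue) and high (orange) feeding level, 4 arrays each, for the 6 members of lowest p and the means of the leukocyte and macrophage marker lists, with squares for males, circles for females, a line at the mean and a bar of 1 SD each way. CXCL9, IL13RA1, TNFRSF21 and the leukocyte list do not overlap between the levels, and the dashed line marks 4.

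In liver no member of 32 passed between the feeding levels, beside 0% of 12617 probe sets. In limma 4 members had an unadjusted p below 0.05, or 12.5%, beside 11.5%. IL13RA1 was again without overlap, at 5.59, 5.41, 5.49 and 5.24 at the low level (males 15 and 16, females 18 and 21) and at 5.77, 5.85, 6.24 and 5.95 at the high level (males 14 and 17, females 19 and 20). It was the 1 such member, beside 5.9% of all probe sets, with a difference of -0.52 ± 0.13 (SE; adjusted p = 0.317). IL18 stood at 7.68, 6.86, 6.85 and 7.02 against 8.20, 7.62, 7.66 and 8.30, where male 15 at the low level overlapped the high arrays, with -0.84 ± 0.25 (SE; adjusted p = 0.345). TNFAIP8, CCL2 and CCL19 had -0.56, -0.70 and -0.70, with adjusted p-values of 0.394 to 0.524. The other probe set of TNFAIP8 had 0.06. CCL3L1 was below 4 on the low arrays and above it on 2 of 4 high arrays, male 14 and female 20. Among the signalling genes LBP had -1.80 and did not pass (adjusted p = 0.266).

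The differences between effects were tested too. The test of whether the feeding difference varied between the sexes called 0 of 32 members in liver, beside 0% of 12617 probe sets, and 0 of 33 in backfat, beside 0% of 12686. In limma 3 and 2 members had an unadjusted p below 0.05, or 9.38% and 6.06%, beside 5.43% and 5.27%. In liver the lowest p-values were those of CCL5, IL16 and IL4R, with 1.01, -1.35 and 0.95 (adjusted p = 0.898). The value of IL16 rests partly on male livers below the line. In backfat they were those of IL18, IL10RB and IL34, with -1.97, -0.87 and -1.53 (adjusted p = 0.893). IL18 was above 4 on 3 of the 8 backfat arrays, so its value rests largely on levels below the line. Without male 15 and female 20 that of IL34 was -2.40. That of whether it varied between the tissues called 0 of 37, beside 0.0215% of 13962 probe sets, with an unadjusted p below 0.05 in 5 members, or 13.5%, beside 8.77%. CXCL9 had -1.86 ± 0.65 (SE; adjusted p = 0.437), CCL5 -0.99 and CCL4 -0.74. Without the backfats of male 15 and female 20, CCL4 had -0.48. The test of whether the sex difference varied between the tissues called 0 of 37, beside 2.21%, with 3 members at an unadjusted p below 0.05, or 8.11%, beside 13.5%. IL4R had -1.11 ± 0.31 (SE; adjusted p = 0.103), CCL4 0.74 and CCL14 0.57.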

How the data were processed

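The authors deposited log2 expression values, made with GCRMA per the submitters' processing notes, for 24123 probe sets. The sources used here give no settings or version of it. It sets dim probe sets near a common floor, so differences against that floor depend on its background model. The 124 control probe sets were left out. The annotation paired 10099 probe sets with 1 gene symbol and 198 with several, and did not list 13826. Probe sets above 4 on at least 2 arrays of a fit were tested with limma 3.58.1 (lmFit and eBayes) in R 4.3.3 on group means, without an animal block, and p-values were adjusted by Benjamini-Hochberg over all of them. Folds marked "at least" set the brighter mean against 4.

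The genes, lists and tests were chosen with earlier results of these data known. Genes were named by fixed lists, by largest tissue difference and by lowest p elsewhere, and others so that each member is accounted for. The signalling and marker lists came from general knowledge. On simulated arrays the feeding test in backfat, over 12675 probe sets, recovered 38% of changes of 1 and 82% of changes of 2 on the log2 scale. The sex test in liver, over 12567, recovered 58% and 86%. The changes were placed only in probe sets whose mean lay more than 2 above the line of 4. CXCL9, IL13RA1, CCL5, IL18 and IL34 were dimmer than that in backfat, so the shares recovered there do not cover them. Animal numbers pair the tissues of the 4 males. For each male, the deviations of liver and of backfat from their group means were correlated over 13962 probe sets. The high-fed males gave 0.0874 and the low-fed males 0.0549. Both animals of such a pair necessarily share their value, since they deviate equally in opposite directions. These are therefore 2 separate values, not 4. Alternatives changed the filter, the scaling, the probe set, the fit and the arrays included.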

Additional observations from a re-analysis of the deposited data

Results flagged for a closer look

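Among 83 groups of 4 or 8 arrays searched for a lone array, 2 had one by Dixon's test, or 2.41%. Chance flags about 1 group in 20. CXCL12 in liver stood at 10.53 on the high-fed male 17, against 11.14 to 11.54 on the other 7 livers. CCL5 in backfat stood at 4.56 on the high-fed male 14, against 5.60 to 5.82 on the other 3 high arrays.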

How the results depend on the processing

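The tissue count of 32 was 30 to 34 with any 1 array left out and 25 to 36 under all settings (36 of 76 with no filter, 25 of 26 with a filter at 6, 29 with values under 4 set to 4, 25 of 34 in males alone with the animal as a fixed replicate block, and 30 without male 15 and female 20 in backfat, a setting chosen after seeing the data). The animal as a random replicate block left 32 and changed no named tissue call. On the probe sets that stood for the genes no named tissue difference reversed in these settings, but the other probe set of CXCL12 gave 0.68 (adjusted p = 0.00441 in limma) in place of -2.05. Of 25 named tissue differences, 19 kept their side of the threshold in every setting; CXCL14 lost its call in males alone (1.22, adjusted p = 0.0595 in limma), as did TNFAIP6 (0.62, adjusted p = 0.0501).

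The sex count in liver of 1 was 0 with no filter and 2 with a filter at 6, with an intensity trend, or with all 16 arrays in 1 fit, also where the males' replicate block was added. It was 0 to 1 with any 1 array left out. The counts of sex in backfat, of feeding in either tissue and of the 4 interactions stayed at 0 in every setting run. Members without overlap numbered 2 to 6 for sex in liver with any 1 array left out (6 without male 14, 3 without female 20, 2 without any other) and 3 after a shift to a common median. They numbered 1 to 3 for sex in backfat (3 without female 23), 1 to 5 for feeding in liver (5 without male 17, 4 without male 15) and 3 to 6 for feeding in backfat. Without male 15 and female 20 in backfat they were 3 for sex and 7 for feeding. Fewer arrays per group make overlap rarer. Members above the line numbered 30 in liver and 31 to 32 in backfat with any 1 array left out, and 17 in each tissue above 6.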

Other observations

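The backfat array of the high-fed female 21 stood apart in several of these genes, chosen here after their values were seen. CCR1, a receptor of inflammatory chemokines, was at 5.61 there and at 2.48 to 2.90 on the other 7 backfat arrays. CXCL8, a neutrophil attractant, was at 4.76 against 2.83 to 3.32. IL2RG, the chain shared by receptors of IL2 and its relatives, was at 3.65, and IL1B at 2.94, both the highest of the backfats but below 4. CXCR4, at 5.22, and TNFAIP8, at 7.55, were also highest there. The same array had the highest leukocyte and macrophage marker means in backfat, 6.48 and 6.24. The part of these cells was not tested.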
